A study of Rattus norvegicus with 90 samples.

Results

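The kidneys of rats killed 24 h after a single dose of thioacetamide were compared directly between the high dose (100 mg/kg, 5 samples) and the low dose (25 mg/kg, 5 samples). These 10 samples were chosen by their labels for organ, time, and dose, from 90 samples of rat liver, kidney, and heart. The animals were male Sprague-Dawley rats, 10 weeks old, that carried jugular vein catheters and received thioacetamide or saline intraperitoneally. All of them had food withdrawn for the last hours before the organs were taken. Per the study's methods, the 24 h rats were dosed in the late afternoon and fed until the last 8 h. The 8 h rats were dosed in the morning and had no food after dosing. Between 8 and 24 h, time after the dose therefore cannot be told apart from dosing hour and feeding. The 10 kidneys are set beside the 5 kidneys taken 24 h after saline (3 ml/kg), the kidneys taken 8 h after saline or either dose, and the livers and hearts taken at 24 h, with tests of their own where these are given. A whole frozen kidney was powdered before RNA extraction, so cortex, medulla, and papilla are mixed in each library. In such bulk RNA, fewer cells of a type and less RNA per cell cannot be told apart.

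Thioacetamide is a classical liver toxicant that becomes harmful only after monooxygenase enzymes oxidize its sulfur, and the oxidized products bind covalently to proteins and lipids. The liver carries out most of this oxidation, and the tubules of the kidney, which reabsorb solutes and secrete drugs, also carry some of these enzymes. Injured tubule cells are known to lower the RNA of transporters and metabolic enzymes and to raise RNA of repair, stress, and matrix proteins. The direct comparison of the doses asks which kidney RNAs depended on the dose at the later time.

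The libraries were made from poly-A RNA and sequenced as read pairs of 75 bp. The files hold an estimated count for each of 65166 targets. Of these, 40071 are Ensembl transcripts, on which the comparison rests, and 25095 are genomic intervals. No file used here says which gene a transcript belongs to, so the values below are for transcripts, no gene or pathway is named, and the labelled organ could not be checked by marker genes. It was checked by levels: over 25510 transcripts, each of the 10 libraries had a mean correlation of 0.938 to 0.960 with the vehicle kidneys, 0.728 to 0.799 with the vehicle livers, and 0.721 to 0.742 with the vehicle hearts. The 0.799 with the livers was that of the low-dose library MS-37 alone, and the next highest was 0.753 (MS-54). Why MS-37 was nearer to the livers was not tested. Total estimated counts ranged from 16919321 to 25110409 (median 22318245) after the low dose and from 21101964 to 31562820 (median 27080945) after the high dose (two-sided exact permutation test of the means, p = 0.0635). No pair of kidney libraries looked like 1 library deposited again, since at most 3.42% of transcripts with at least 10 counts agreed within 1 count in any of 435 pairs. By correlation, the library of the 10 least like the others of its dose was the high-dose MS-106. Its mean correlation was 0.939 with the other high-dose libraries, 0.938 with the low-dose libraries, and 0.939 with the vehicle libraries. MS-37 (0.950) and MS-105 (0.944) were the low-dose libraries least like the others of their dose. Another low-dose library, MS-35, leaned toward the high dose. Its mean correlation was 0.961 with the high-dose libraries and 0.956 with the other low-dose libraries, and it was the only low-dose library nearer to the other dose. It also had the lowest total count of the 10, and the part of depth in its position was not tested.

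A transcript was called differentially expressed when its adjusted p-value was 0.01 or less and its natural-log fold change was 0.60 or more in either direction, a 1.82-fold difference. At 24 h, 153 of 18844 tested transcripts (0.812%) met both criteria by edgeR's quasi-likelihood test with Benjamini-Hochberg adjustment. Of these, 47 (0.249% of those tested) were lower after the high dose and the rest (0.563%) were higher. The median difference of the transcripts called higher was 1.36 on the log2 scale, or 2.57-fold, with quartiles of 1.05 and 1.89. For the transcripts called lower the median was -1.24, which is 2.36-fold lower, with quartiles of -1.65 and -1.06. Over all tested transcripts the median log2 fold change was 0.00. A 4-fold difference (2 on the log2 scale) was reached by 22 of the transcripts called higher and 9 of those called lower.

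**Figure D1:**
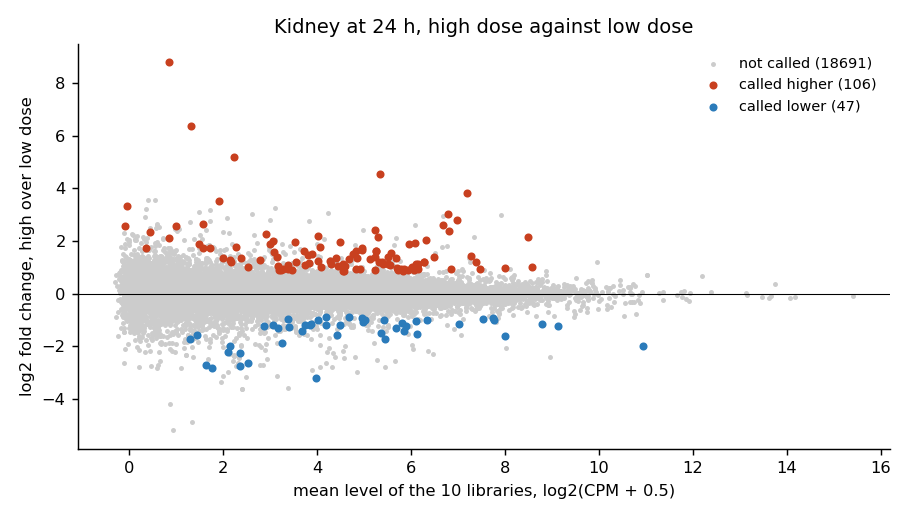
Each point is a tested transcript, with its mean level over the 10 kidney libraries on the x axis (log2 of CPM + 0.5) and its log2 fold change, high over low dose at 24 h, on the y axis. The transcripts called higher (red) and the 47 called lower (blue) spread over most of the range of levels, and the point at the top is a transcript with 0 counts in all 5 low-dose libraries, whose fitted value depends on the prior count.

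The count depended on single libraries. With MS-35 left out, 284 transcripts were called (169 higher, 115 lower), 144 of them shared with the 153, all in the same direction. Leaving out any other library gave between 33 (without MS-106, high dose) and 104 (without MS-54, high dose), and 31 of the 153 transcripts (28 higher, 3 lower) were called whichever of the 10 was left out. Libraries numbered above 90 were fitted as a batch, which held 1 library of each dose (MS-105 and MS-106). Within the batch numbered up to 90, 4 libraries against 4, 36 transcripts were called (32 higher, 4 lower), 35 of them among the 153, and the other batch is too small for a test. Leaving out MS-105 or MS-106 leaves the other alone in its batch, where the batch term takes up its level. Those fits (35 calls without MS-105, 33 without MS-106) thus compare the same 4 libraries against 4 and are not separate checks. Without the batch term the count was 72 (52 higher, 20 lower).

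The levels of the 5 most abundant tested transcripts, with a mean TPM of 24816 to 34853, gave no call between the doses. Together they took 15.8% of the TPM after the low dose and 14.2% after the high dose, with log2 fold changes from -0.33 to -0.09 and a smallest adjusted p of 0.266 by edgeR's quasi-likelihood test. Transcripts were called in every range of abundance. The share called was 0.224% under 1 TPM (6 of 2678), 0.773% from 1 to 10 TPM (65 of 8412), 1.04% from 10 to 100 TPM (69 of 6652), and 1.18% at 100 TPM or more (13 of 1102). In that most abundant class, 6 were higher and 7 were lower.

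In most called transcripts the libraries of the doses did not overlap. This was so for 93 of those called higher and 45 of the 47 called lower, where over all tested transcripts 928 (4.92%) did not overlap, 561 (2.98%) of them higher and 367 (1.95%) lower. Because calling used the same libraries, these counts only describe the calls. The common biological coefficient of variation, the replicate spread of an average transcript, was 36.3% within the low dose, 35.4% within the high dose, and 31.5% within vehicle.

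The transcript with the largest rise, among the 85 called higher with a mean of at least 2 CPM and no overlap, was ENSRNOT00000091687 (3633 bases). After the low dose its level was 0 CPM in 2 of the 5 libraries (MS-32 and MS-35), 0.0872 in MS-52, 0.279 in MS-37, and 1.21 in MS-105. After the high dose it was 5.59, 7.39, 7.02, 16.7, and 3.88 CPM in MS-33, MS-36, MS-54, MS-106, and MS-56. All high-dose kidneys were thus above all low-dose kidneys, and the low-dose kidneys were near the vehicle kidneys, which lay between 0 and 0.489 CPM. The means were 0.314 ± 0.511 and 8.12 ± 5.0 CPM (SD, n = 5 each), and the fitted difference was 5.21 ± 0.64 (SE) on the log2 scale, with an adjusted p of 0.00263 by edgeR's quasi-likelihood test. The call was lost in 3 of 23 alternatives, which were no batch term (adjusted p = 0.0302 by edgeR's test), without MS-52 (0.0132), and without MS-106 (0.0112). The fit without MS-106 rests on the libraries numbered up to 90, which alone kept the call (0.00948 by edgeR's test). Over all 23 the log2 fold change lay between 1.58 and 5.85. The 1.58 came from limma on log2(TPM + 1), whose added 1 is large beside the low-dose mean of 0.0809 TPM, and limma on log2(TPM + 0.1) gave 3.85. The transcript was also called higher at 8 h (adjusted p = 0.000187 by the same edgeR test), with 7.16 ± 3.32 CPM after the high dose and 0.362 ± 0.0680 CPM after the low dose (SD, n = 5 each).

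ENSRNOT00000027891 (1663 bases) had the next largest rise at 24 h. Its level after the low dose was 1.47, 11.2, 2.51, 1.0, and 0.871 CPM in MS-32, MS-35, MS-37, MS-52, and MS-105. After the high dose it was 81.9, 78.6, 70.9, 90.6, and 60.8 CPM in MS-33, MS-36, MS-54, MS-106, and MS-56. The low-dose library MS-35 was well above the other low-dose libraries and still far below each high-dose library. The means were 3.40 ± 4.38 and 76.5 ± 11.3 CPM (SD, n = 5 each), with a fitted log2 difference of 4.57 ± 0.66 (SE) and an adjusted p of 0.00557 by edgeR's quasi-likelihood test. Vehicle kidneys held 0.985 ± 0.347 CPM (SD, n = 5). At 8 h the difference was small, 1.44 ± 0.715 CPM after the low dose and 3.64 ± 2.28 CPM after the high dose (SD, n = 5 each), and was not called (log2 fold change 1.16, adjusted p = 0.317 by edgeR's quasi-likelihood test). The 24 h call was lost in 11 of 23 alternatives, and over all 23 the log2 fold change lay between 4.20 and 6.08.

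The largest fall, among the 44 called lower with a mean of at least 2 CPM and no overlap, was that of ENSRNOT00000084733 (3784 bases). Low-dose kidneys held 36.4, 15.3, 23.6, 46, and 15.2 CPM in MS-32, MS-35, MS-37, MS-52, and MS-105. High-dose kidneys held 4.78, 2.66, 3.91, 1.08, and 2.92 CPM in MS-33, MS-36, MS-54, MS-106, and MS-56. Vehicle kidneys held 16.4 to 35.9 CPM, and their mean of 27.2 ± 8.60 was close to the low-dose mean of 27.3 ± 13.6 (SD, n = 5 each), while each high-dose library lay below both groups. The fitted log2 difference between the doses was -3.21 ± 0.32 (SE), a 9.24-fold lower level, with an adjusted p of 0.00125 by edgeR's quasi-likelihood test. It was called in all 23 alternatives. At 8 h the levels were 8.19 ± 3.73 CPM after the high dose and 27.3 ± 4.21 CPM after the low dose (SD, n = 5 each), a difference that missed the threshold (adjusted p = 0.0277 by edgeR's quasi-likelihood test). This transcript was nearly restricted to the kidney among the 3 organs, with a group mean of at most 0.106 TPM in the liver and 0.0233 TPM in the heart at 24 h, against 7.14 TPM in vehicle kidneys.

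ENSRNOT00000035040 (1509 bases) was lower after the high dose than after the low dose at 24 h, and the low dose lay between it and vehicle. Vehicle kidneys held 10.4 to 18.2 CPM, with a mean of 13.4 ± 3.04 (SD, n = 5). Low-dose kidneys held 4.75, 1.21, 4.51, 6.50, and 8.37 CPM in MS-32, MS-35, MS-37, MS-52, and MS-105. High-dose kidneys held 0.778, 0.406, 0.630, 0.739, and 0.818 CPM in MS-33, MS-36, MS-54, MS-106, and MS-56. No library of one group reached into the next, and MS-35 was the low-dose library nearest to the high dose. The log2 difference between the doses was -2.84 ± 0.43 (SE), with an adjusted p of 0.00711 by edgeR's quasi-likelihood test, and the difference of low dose from vehicle, -1.45, did not meet the threshold (adjusted p = 0.145 by the same edgeR test). The call between the doses was lost in 14 of 23 alternatives, and over all 23 the log2 fold change lay between -3.19 and -1.57. The -1.57 came from limma on log2(TPM + 1), whose added 1 is large beside the high-dose mean of 0.519 TPM, and limma on log2(TPM + 0.1) gave -2.51.

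**Figure D2:**
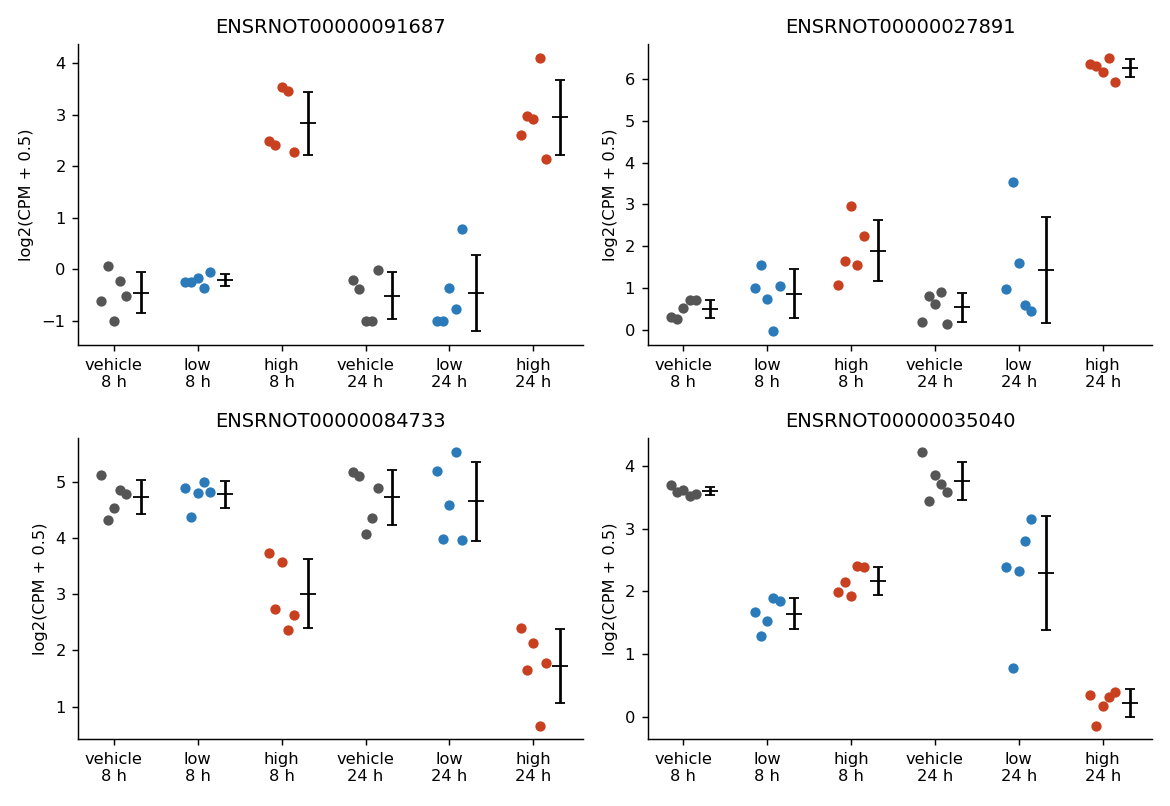
Each panel shows 1 transcript in the kidney, with the 6 groups on the x axis and log2(CPM + 0.5) on the y axis; points are libraries and bars are the mean ± SD of 5. The upper transcripts rise and the lower ones fall after the high dose at 24 h, and ENSRNOT00000035040 is below vehicle in both dose groups at both times.

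The transcripts with the 12 largest rises and the 12 largest falls under the same conditions moved from 2.19 to 5.21 and from -3.21 to -1.60 on the log2 scale. Another transcript called higher was at 0 counts in all 5 low-dose libraries and below the limit of 2 CPM, so it is not in those ranges. The high-dose kidneys held 2.61 ± 0.942 CPM of it (SD, n = 5), at least 83.9-fold above the level that 3 counts over the whole low-dose group would give. Vehicle kidneys held 0.321 to 5.50 CPM of it, a range that overlaps the high dose.

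Each dose can also be set beside vehicle at 24 h, with the reservation that these comparisons share samples with the one between the doses. Against vehicle, 832 of 18967 transcripts (4.39%) were called after the high dose, 2.21% higher and 2.18% lower, and 4 of 18559 (0.0216%) after the low dose, with the same test and batch term. For the transcripts called higher between the doses, the median log2 fold change was 1.63 for high dose against vehicle and 0.31 for low dose against vehicle, the latter over 97 transcripts that passed its filter. For the 47 called lower, these medians were -1.59 and -0.25. Of the 153, none of those tested was called after the low dose, where few transcripts were called at all. The others, ENSRNOT00000091687 among them, did not pass the filter of that comparison and could not be called. For both rises named above, the low-dose mean was nearer to vehicle than to the high dose. Among the 12 largest falls, 1 transcript had a positive log2 fold change against vehicle after the high dose (0.43), and for it the value after the low dose was larger (2.71, not called).

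In other rats, killed at 8 h, the same contrast called 57 of 18611 transcripts (0.306%), 48 higher (0.258%) and 9 lower (0.0484%). That is fewer than the 153 at 24 h, but the order depended on the batch term, without which 90 were called at 8 h and 72 at 24 h. At 8 h the libraries numbered above 90 were MS-98, MS-101, and MS-102 of the high dose and MS-108 of the low dose. Dose and batch were thus partly mixed at 8 h, unlike at 24 h. Of the 153 transcripts of 24 h, 26 were called at 8 h, which is 17% of the 153 and 45.6% of the 57, all in the same direction. Of the transcripts called higher at 24 h, all but 1 were tested at 8 h, and 87 of them (82.9%) had a positive log2 fold change, with a median of 0.64. Of the 47 called lower, 38 (80.9%) had a negative log2 fold change at 8 h, with a median of -0.28. Over all 18292 transcripts tested at both times, 52.7% had the same direction. The transcripts were chosen for a large difference at 24 h, which by itself pulls a ratio of the 8 h to the 24 h log2 fold change below 1. As a description, this ratio had a median of 0.427 for the transcripts called higher and 0.237 for those called lower. The ratio was at least 0.5 for 45 (42.9%) of the former and 6 (12.8%) of the latter, and whether these shares differ was not tested.

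**Figure D3:**
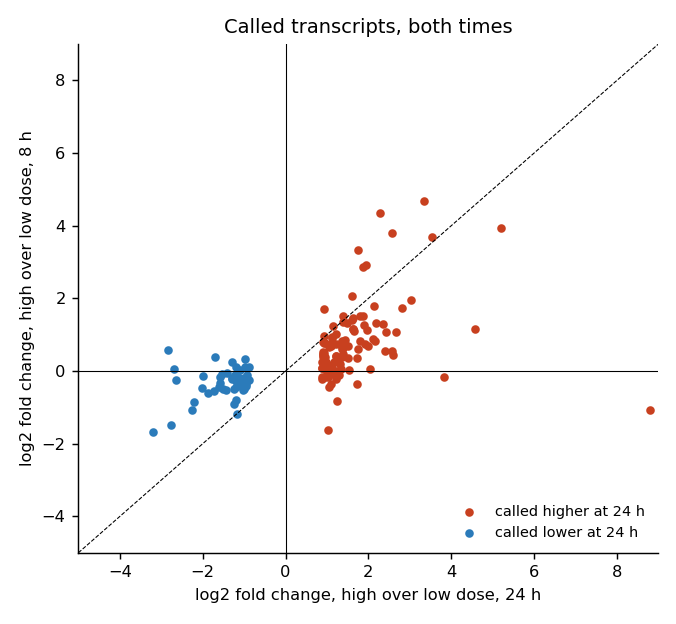
Each point is 1 of the transcripts called at 24 h and tested at 8 h, with the log2 fold change of high over low dose at 24 h on the x axis and at 8 h on the y axis; the dashed line marks equal differences. Most points lie between the x axis and the dashed line, where a choice of transcripts by their 24 h difference would also put them, and the point farthest right is the transcript with 0 counts in the low-dose libraries at 24 h, whose fitted value depends on the prior count.

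A test of the difference between the times, over 20 kidney libraries, called 7 of 19849 transcripts (0.0353%) by edgeR's quasi-likelihood test at the same adjusted p, with no limit on size. In 6 of them (0.0302% of those tested) the dose difference was more positive at 24 h and in 1 (0.00504%), ENSRNOT00000035040, more negative. For ENSRNOT00000035040 the means at 8 h were 11.6 ± 0.553 CPM with vehicle, 2.67 ± 0.524 CPM after the low dose, and 4.05 ± 0.705 CPM after the high dose (SD, n = 5 each). The 8 h difference between the doses, 0.57 on the log2 scale, was not called (adjusted p = 0.245 by edgeR's quasi-likelihood test), so a reversal between the times is not shown. In a pair of the other 6, the high dose was far above the low dose at 24 h and less so at 8 h. In the first, mean levels were 38.2 and 58.4 CPM at 8 h and 35.7 and 188 CPM at 24 h, low and high dose in that order, and in the second they were 33.7 and 45.5 CPM at 8 h and 29 and 176 CPM at 24 h. In 3 of the 6 the order of the means changed between the times. In one, they were 97.6 ± 37.5 and 33 ± 7.20 CPM at 8 h and 42.5 ± 3.37 and 86.9 ± 16.8 CPM at 24 h (SD, n = 5 each). In another, they were 81.5 ± 9.64 and 51.6 ± 6.60 CPM at 8 h and 47 ± 7.71 and 84.3 ± 18.6 CPM at 24 h. In the last, they were 18.5 ± 0.791 and 15.3 ± 1.22 CPM at 8 h and 19.6 ± 1.19 and 26.4 ± 1.65 CPM at 24 h. Only the first of these 3 was also called between the doses at 24 h. The means carry no batch term and no 8 h test of these 3 is given here, so a reversal is not shown. The remaining transcript had 15.2 and 17.2 CPM at 8 h and 14.3 and 35.7 CPM at 24 h. Without MS-35 the interaction count was 77, and leaving out any other of the 20 libraries gave from 2 to 8.

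The rats also gave their livers and hearts, so values in those organs come from the same animals and are not further replicates. In the liver at 24 h, 1128 of 17101 transcripts (6.6%) were called between the doses, 2.76% higher and 3.84% lower, and 45 of them were among the 153 of the kidney. That is 29.4% of the kidney calls and 3.99% of the liver calls, and all 45 had the same direction in both organs. Of the transcripts called higher in the kidney, 99 (96.1% of those tested in the liver) were also higher there, with a median log2 fold change of 0.90, and 40 of them were called. Of those called lower, 32 were tested in the liver, 22 of them (68.8%) were lower there, with a median of -0.27, and 5 were called. Over the 16199 transcripts tested in both organs, 66.5% had the same direction. In the heart, no transcript of 17642 was called by edgeR's quasi-likelihood test, and 1962 had an unadjusted p under 0.05. The median log2 fold change in the heart was 0.12 for the kidney transcripts called higher and -0.18 for those called lower. Of the named transcripts, ENSRNOT00000091687 was also called in the liver (log2 fold change 3.17 ± 0.54 SE, adjusted p = 0.00245 by edgeR's quasi-likelihood test). ENSRNOT00000027891 was as well, with 1.52 ± 0.30 (SE) and an adjusted p of 0.00393 by the same edgeR test.

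The transcripts called in each direction can be described by their levels in vehicle animals at 24 h, without a test. The mean kidney level was at least 4-fold above that of both liver and heart, in TPM, for 29 of the 47 transcripts called lower (61.7%) and for 2 of those called higher (1.89%). Over all tested transcripts this share was 10.9%, and 11% among those with at least 1 TPM in vehicle kidneys, which all 47 had. Liver or heart exceeded the kidney at least 4-fold for 18 of those called higher (17%), 2 of the 47 called lower (4.26%), and 8.88% of all. Among those with at least 1 TPM in vehicle kidneys, this was so for 11 of 87 called higher (12.6%) and 5.91% of all. These counts rest on the vehicle liver library MS-1, whose values match those of a liver library labelled low dose at 8 h. Without MS-1, liver or heart exceeded the kidney 4-fold for 10 of those called higher (9.43%) against 8.55% of all, so the share was close to the background. The share with a kidney level 4-fold above both organs was then still 61.7% of those called lower (29), with 3.77% of those called higher (4) and 11.4% of all. The median kidney level with vehicle was 3.92 TPM for the transcripts called higher, 14.5 TPM for those called lower, and 5.67 TPM for all. Under 1 TPM with vehicle were 19 of those called higher (17.9%), none of the 47, and 17.6% of all tested. Transcript lengths were alike in the medians, at 2336 bases for those called higher, 2240 for those called lower, and 2145 for all.

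**Figure D4:**
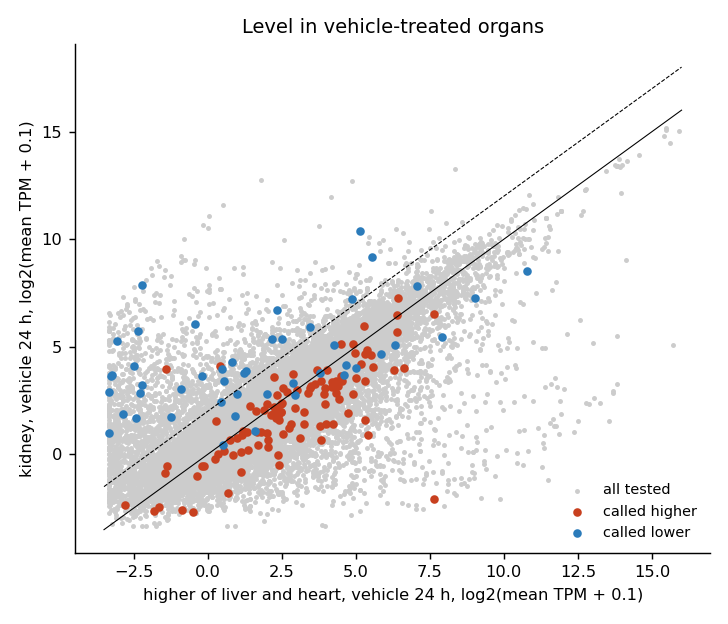
Each point is a tested transcript, with the higher of its mean liver and heart levels on the x axis and its mean kidney level on the y axis, both in vehicle rats at 24 h as log2(TPM + 0.1); the solid line marks equal levels and the dashed line a kidney level 4-fold higher. Of the 47 transcripts called lower (blue), 29 pass the 4-fold rule, and of those called higher (red), 2 do.

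Each library was also placed between the groups on transcripts called without it, where 0 is the mean of the low-dose and 1 the mean of the high-dose libraries that remained, on log2(CPM + 0.5). The median position of the high-dose libraries was between 0.881 (MS-54) and 1.03 (MS-36), over 33 to 104 transcripts. Of the low-dose libraries, MS-32, MS-37, MS-52, and MS-105 were at -0.074, -0.015, -0.025, and -0.119, over 35 to 80 transcripts. MS-35 was at 0.509, over the 284 transcripts called without it, with quartiles of 0.346 and 0.694, and 153 of the 284 (53.9%) lay nearer to the high dose. On these sets, 4 low-dose kidneys of 24 h were near 0 and 1 was midway between the doses. The sets differ: the other 4 were placed on transcripts called with MS-35 in the low-dose group, and MS-35 on transcripts called without it. Part of the contrast can come from this choice, and how much was not tested.

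On the transcripts called among all 10 libraries, the vehicle kidneys of 24 h lay from -0.235 to -0.155 for the set called higher and from -0.412 to -0.0892 for the set called lower. Both ranges lie beyond the low-dose mean, on the side away from the high dose, and that mean includes MS-35. Kidneys taken 8 h after the low dose lay from 0.176 to 0.278 for the set called higher and from -0.0912 to 0.275 for the set called lower, and in 1 of them, MS-42, the set called lower was the further along. Those taken 8 h after the high dose lay from 0.542 to 0.768 for that set and from 0.245 to 0.476 for the set called lower. In each of these 5 high-dose libraries the set called higher was the further along. These positions use levels without a batch term, and the part of the batch in them was not tested.

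**Figure D5:**
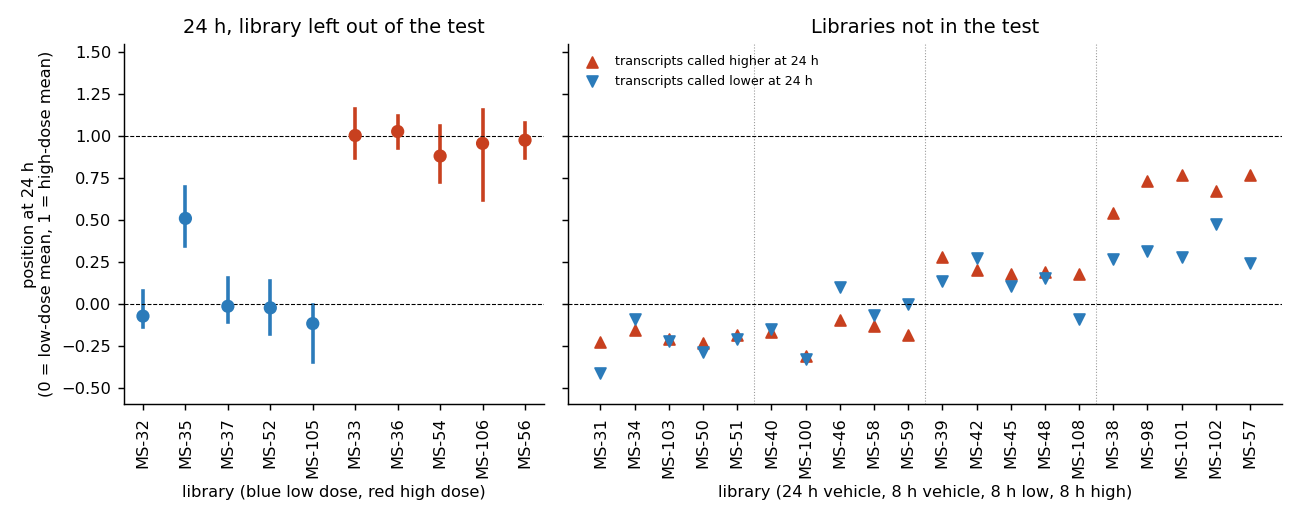
Left, the median position of each 24 h library on transcripts called without it, with quartiles as bars (0 is the low-dose mean, 1 the high-dose mean); right, median positions of kidneys that the test did not use, for transcripts called higher (upward triangles) and lower (downward triangles). MS-35 sits at 0.509 while the other low-dose libraries are between -0.119 and -0.015, and the 8 h high-dose kidneys reach 0.542 to 0.768 on the transcripts called higher.

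Beside the transcripts, 10695 genomic intervals passed the filter in the same comparison and 197 of them (1.84%) were called, 74 higher (0.692%) and 123 lower (1.15%) after the high dose.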

How the data were processed

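Conditions were taken from the sample labels, and library numbers from the sample titles. Per the labels and the study's methods, reads were quantified by the authors with Kallisto (0.42.2 in the submitters' processing notes) against the Ensembl rat transcriptome (Rnor_6.0). They deposited an estimated count for each target, which need not be whole and is not normalized, and a TPM, an abundance per length that sums to a fixed total in each library. Isoforms that share sequence share read pairs, which Kallisto divides among them, so their levels are less certain. Of the 153 called transcripts, 2 had the same counts as another transcript.

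Estimated counts of the transcripts were rounded and compared in R 4.3.3 with edgeR 4.0.16, by TMM scaling, the default expression filter, the quasi-likelihood test, Benjamini-Hochberg adjustment over all tested transcripts, and a term for library numbers above 90. No such term was used in the liver and heart. Thresholds are those of the study's methods, set there on another effect size. Levels are CPM on a scale common to all 30 kidney libraries, and those between transcripts or organs are TPM. Totals per library were 16919321 to 31562820, and their number of counts limits what could be called for rare transcripts. The scripts were tested on simulated data. Per the study's methods, the samples of a group come from separate rats.

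Alternatives were DESeq2 1.42.0, limma 3.58.1 with log2(TPM + 1) or log2(TPM + 0.1), other scaling, filters, samples and targets, and leaving out each sample. Members and lists were chosen with earlier results of these data known. Transcripts were named by a rule: called, a mean of at least 2 CPM over the 10 libraries, and no overlap of the doses, largest change first. With no gene names, 2 rises and 2 falls are printed, and preset gene lists and cell type markers were not analysed here. Tables, exact tests, and plots used Python 3.11.15 (matplotlib 3.10.9, pandas 2.3.3, scipy 1.17.1, numpy 2.4.6).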

Additional observations from a re-analysis of the deposited data

Results flagged for a closer look

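Chance marks about 1 in 20 groups of 5 as holding a distant sample, and 16 groups were examined. Among the low-dose kidneys at 24 h, MS-35 was far from the others in its median position between the doses, at 0.509, each placed on its own set of transcripts. It was also far above the other low-dose kidneys in ENSRNOT00000027891, with 11.2 CPM, where the others lay between 0.871 and 2.51 CPM. In ENSRNOT00000091687, however, MS-35 was at 0 CPM, and the distant low-dose library was MS-105, at 1.21 CPM. In the same transcript MS-106 was the distant high-dose library, at 16.7 CPM, where the others lay between 3.88 and 7.39 CPM. MS-105 and MS-106 are also the libraries numbered above 90 in this comparison, so the distant values and the batch cannot be told apart.

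The dose difference itself differed between 8 and 24 h for 7 transcripts by edgeR's quasi-likelihood test of the interaction. For ENSRNOT00000035040 the difference of the log2 fold changes, 24 h minus 8 h, was -3.36 ± 0.49 (SE), with an adjusted p of 0.00722 by that edgeR test. Its dose difference at 8 h alone, 0.57 on the log2 scale, was not called (adjusted p = 0.245 by edgeR's quasi-likelihood test).

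Genomic intervals listed beside the transcripts also differed between the doses. Of 10695 tested, 197 (1.84%) met the same criteria, 74 higher and 123 lower after the high dose, and 2035 had an unadjusted p under 0.05 in edgeR. Their median log2 fold changes were 1.60 and -1.48. By the naming rule applied to intervals, the largest rises were on chromosome 7 from 116255668 to 116275316 and on chromosome 1 from 220837005 to 220839617 (Rnor_6.0, the build in the submitters' processing notes). The first went from 0.858 ± 1.14 CPM after the low dose to 23.1 ± 6.14 CPM after the high dose, and the second from 0.255 ± 0.0983 to 6.13 ± 3.28 CPM (SD, n = 5 each). Both were low with vehicle, at 0.258 ± 0.175 and 0.178 ± 0.138 CPM (SD, n = 5 each). The largest falls were on chromosome 5 from 115222586 to 115224763, from 5.42 ± 3.47 to 0.161 ± 0.0868 CPM, and on chromosome 19 from 52070252 to 52076609, from 12.9 ± 6.80 to 0.985 ± 0.403 CPM (SD, n = 5 each). With vehicle they held 8.12 ± 7.48 and 33.1 ± 16.8 CPM (SD, n = 5 each), so the low-dose mean on chromosome 19 was already below the vehicle mean, a difference that was not tested. No annotation of this build was used here, so the genes at these positions are not named.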

How the results depend on the processing

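No paired analysis was possible because the labels give the samples of a group no replicate numbers, and numbers given in accession order only name a sample. The count of 153 transcripts called between the doses at 24 h (47 of them lower, the rest higher) was, with higher and lower in brackets, 72 (52, 20) without the batch term and 36 (32, 4) with libraries numbered up to 90 alone. It was 392 (214, 178) with DESeq2, 252 (163, 89) with no limit on the fold change, and 293 (171, 122) without the low-dose libraries MS-35 and MS-37, an alternative chosen after seeing the data. Only the number called lower moved by over 1.5 times with all 15 kidney samples of 24 h in one fit (82 lower, 199 in all) and with all targets in the fit (83 lower, 178 in all). The share of calls that were higher was 69.3%, against 54.6% with DESeq2, 53.4% with all targets, 58.8% with 15 samples, and 58.4% without MS-35 and MS-37. The share was 59.5% without MS-35 and hardly moved without MS-54 (69.2%). It was 63.2% to 68.6% with both limma fits, DESeq2 size factors in edgeR, the other filters, no fold limit, and the interval covariate. The remaining alternatives raised it, for example to 72.2% without the batch term and to at most 88.9% with libraries numbered up to 90 alone. The fits without MS-105 (88.6%) and without MS-106 (87.9%) rest on those same libraries. With each sample left out, the count was 33 to 284, from 29 to 169 higher and from 4 to 115 lower, with most calls when MS-35 was out. At 8 h the count of 57 was 90 without the batch term and 158 with DESeq2, and from 20 (without MS-108) to 92 (without MS-42) with each sample left out. The interaction count of 7 was 147 with DESeq2 and from 2 to 77 with each sample left out. The cause of these shifts was not tested. Both limma fits, DESeq2 size factors in edgeR, the other filters, and a covariate for the interval share of a library's counts, also added after seeing the data, kept the total within 1.5 times, from 117 to 149. No named transcript changed direction in 23 alternatives. The call was kept in all 23 for ENSRNOT00000084733, and lost in 3 for ENSRNOT00000091687, in 11 for ENSRNOT00000027891, and in 14 for ENSRNOT00000035040. For ENSRNOT00000027891 the losses include DESeq2, which gave it no adjusted p. The organ levels without MS-1 were also added after seeing the data. Sums per gene were not run, since no table used here pairs transcripts with genes.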
